A study of Mus musculus with 6 samples.

Results

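The genes described here are 10 genes of peptide signalling in the retina: Crhbp, which encodes the binding protein of corticotropin-releasing hormone, and the precursor genes Crh, Sst, Npy, Tac1, Vip, Penk, Cartpt, Adcyap1 and Cck. They were taken by gene symbol, 10 of 19057 named genes, and are measured by 13 of the 45281 probes of the array. A probe counted as expressed when its detection p, which sets it against negative control beads, was below 0.05 on 3 or more of the 6 arrays. By this criterion 8 probes of 7 member genes were expressed, and 5 probes were not, which left Crh, Penk and Cck without an expressed probe. The set was chosen with the difference of Crhbp between the genotypes known, and expressed probes were selected on their detection p, so the difference of each member between genotypes is given as a description, and nothing is read from whether a member passed the fit across all probes.

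Whole retinas were taken at postnatal day 8 from mice labelled Lrp5-/- (strain B6.129P2-Lrp5tm1Dgen/J, n = 3) and from WT mice (C57BL/6J, n = 3), and the RNA of each mouse was hybridized to 1 Illumina Mouse-WG6 array. Lrp5 is a co-receptor of Wnt and Norrin signalling that endothelial cells of the growing retinal vessels need. The strains carry separate stock designations and nothing states that the mice were littermates, so effects of the allele and of the strain cannot be told apart. The arrays measured RNA of the whole tissue, where fewer cells of a type and less RNA per cell cannot be told apart.

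Neuropeptides are cut from larger precursors, stored in dense-core vesicles and released to act on G protein-coupled receptors. In the retina most of them are made by small sets of amacrine cells, the inhibitory interneurons of the inner retina, and each set is known by its peptide. Crhbp is a secreted glycoprotein that binds corticotropin-releasing hormone and urocortin and keeps them from their receptors.

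Several neuropeptide genes carry the cyclic AMP response element in their promoters, an element that CREB binds and that is classically known from Sst. The RefSeq promoter table (GRCm38.p6) held 8 of the 10 genes, Crh and Penk excepted. In the 250 bases before the start, the whole palindrome TGACGTCA was found in Sst and Cartpt, 2 of the 8, and its core TGACG, read on both strands and contained in the palindrome, in 7 of the 8. Of all promoters there, 1.55% held the palindrome and 17.8% the core. The windows below are shown so that the copy in Crhbp can be set beside those of the precursors, each 5′ to 3′ on the strand of its gene with the matched letters in capitals.
Crhbp, chr13:95444880-95444906, minus strand: agctggaccctCGTCAttgccacgcat
Sst, chr16:23890874-23890903, minus strand: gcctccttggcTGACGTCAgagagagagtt
Cartpt, chr13:99900777-99900806, minus strand: ccggcgggcatTGACGTCAaacggcagcgg
Vip, chr10:5639128-5639154, plus strand: gatcactactgTGACGtctttcgggga
Adcyap1, chr17:93198915-93198941, plus strand: gactaggatgcTGACGtcttttactga
Tac1, chr6:7555007-7555033, plus strand: ctctacaggctCGTCAcgcctgagata
The match lies 64 bases before the start in Crhbp, 48 in Sst, 112 in Cartpt, 79 in Vip, 91 in Adcyap1 and 43 in Tac1, where a second core lies 197 bases before the start. Cck, without an expressed probe, held the core 47 bases before its start and is not shown. Npy had no match in its window.

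The label was first set against Lrp5 itself. Of its 4 probes, 3 were undetected on every array. The fourth (ILMN_2942097) read 99.2, 91.3 and 95.7 in the Lrp5-/- group and 46.8, 59.5 and 56.1 in the WT group after normalization, a log2 fold change of 0.82 (SE 0.11, adjusted p = 0.0127, limma). This direction is opposite to that of a null label. The probe was detected on 3 of 3 arrays labelled Lrp5-/- but on only 1 of 3 WT arrays, WT replicate 2. It therefore met the criterion for expression through the group in which it read higher. Its WT readings lay near those of undetected probes, which had medians of 46.9 to 48.4 on the WT arrays. The fold change thus rests on WT values near background, and its adjusted p is given as a description. Whether the probe lies inside the deletion is not known here, so every direction below rests on the labels. WT replicate 1 stood apart from the other arrays, with 18167 detected probes against 20286 to 21388 and a residual SD of 0.17 on the log2 scale against 0.10 to 0.13. Its mean signal before normalization was 199.97, against 304 to 431 on the other 5 arrays. The rod photoreceptor list had 10 of 12 genes expressed, the amacrine list 18 of 26 and the ganglion cell list 14 of 22.

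The groups lay apart for Crhbp. Its normalized signal (probe ILMN_1231710) was 386.5, 376.4 and 398.8 in the 3 retinas labelled Lrp5-/-, against 637.0, 737.0 and 608.0 in the WT retinas. Every retina labelled Lrp5-/- lay below every WT retina, and 209.2 signal units separated the nearest values. The means were 387.2 ± 11.2 (SD, n = 3) and 660.7 ± 67.7 (SD, n = 3), so the level in the retinas labelled Lrp5-/- was 58.6% of that in WT retinas. On the log2 scale the difference was -0.77 (SE 0.10), a 1.70-fold lower signal. The spread among WT retinas was wider than among the retinas labelled Lrp5-/-, and the highest value was that of WT replicate 2.

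**Figure D1:**
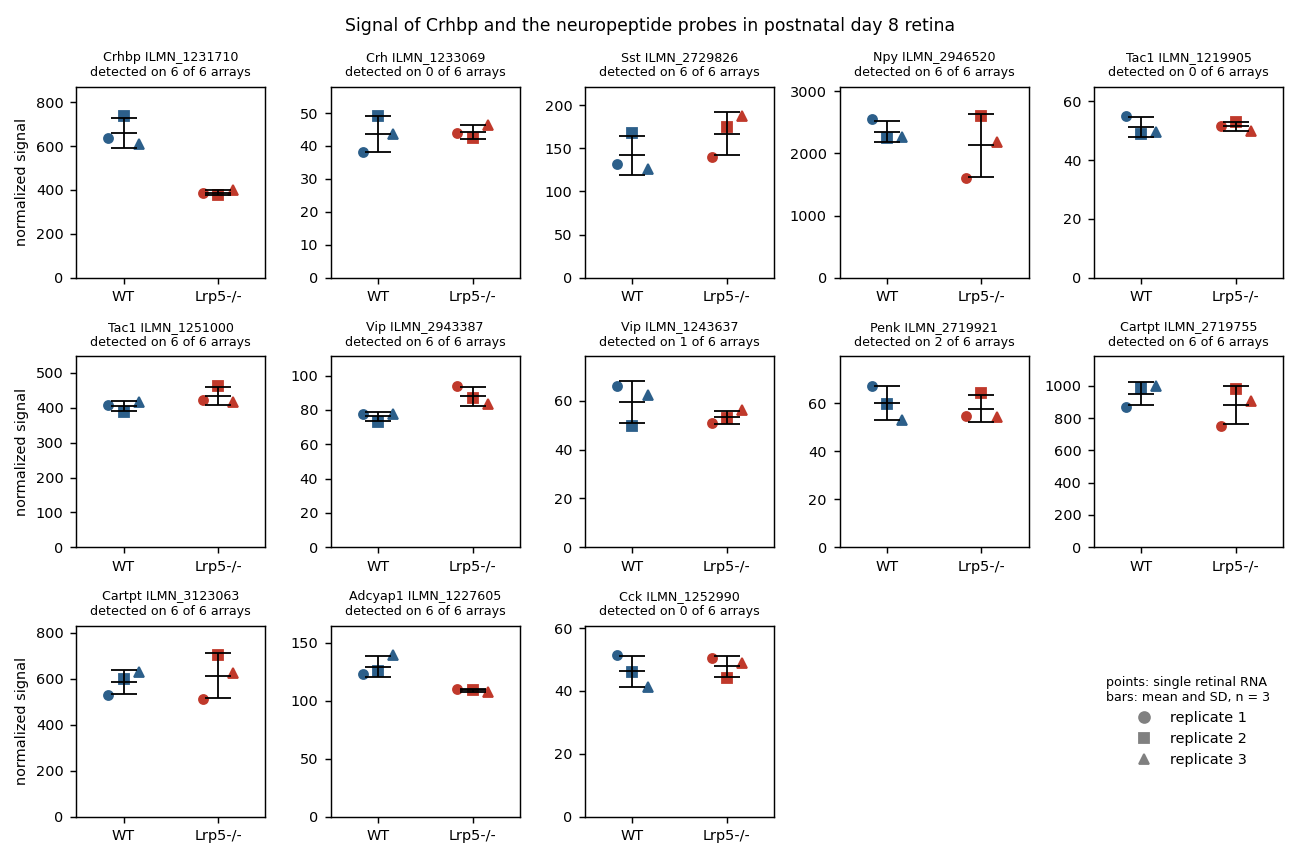
Normalized signal (y axes, linear, starting at 0) of the 13 member probes in single retinas, with bars for the mean and SD of 3 mice per genotype. The Crhbp signals lie at 376.4 to 398.8 in the retinas labelled Lrp5-/- and at 608.0 to 737.0 in WT retinas, while Crh, Cck, Penk and the second probes of Tac1 and Vip lie near background in both genotypes.

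Over all expressed probes, 24 of 20721 passed an adjusted p of 0.05 (0.116%), 18 of them lower (0.0869%) and 6 higher (0.029%) in the retinas labelled Lrp5-/-. Of the 8 expressed member probes 1, that of Crhbp, was among the 18. The choice of the members used this contrast, so this count is a description. The groups did not overlap for 4 of the 8 member probes, 2 of them lower (Crhbp and Adcyap1) and 2 higher (Tac1 and Vip). Over all expressed probes this held for 10.7%, of which 4.96% were lower and 5.74% higher. The median log2 fold change of the 7 expressed member genes was -0.12, beside 1e-04 over all expressed probes. This median is the value of the brighter Cartpt probe, and over all 8 expressed probes the median was -0.03.

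**Figure D2:**
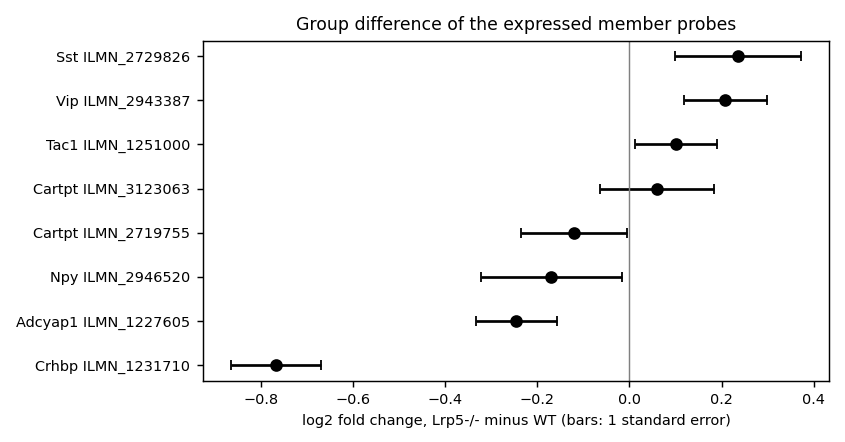
Difference between genotypes of the 8 expressed member probes (x axis, log2 fold change, retinas labelled Lrp5-/- minus WT; bars, 1 SE). Crhbp stands at -0.77, and the other 7 probes lie between -0.24 and 0.24.

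The standard error of Crhbp changed with the scaling of the arrays, and so did its call. Crhbp was chosen with its difference known, so its calls below are a description and no test of that difference. The log2 fold change was -0.76 (SE 0.10) after quantile normalization and -0.81 (SE 0.12) after neqc (background correction from the detection p, then quantile normalization), both called. After scaling the expressed probes to a common median it was -0.69 (SE 0.14), and in the signals without normalization it was -0.65 (SE 0.35). Neither of these was called. In the signals without normalization WT replicate 1 read 363.4 for Crhbp, below the 386.0 to 400.3 of the retinas labelled Lrp5-/-, whereas WT replicates 2 and 3 read 1096.0 and 590.7. That array had the lowest overall signal. With 1 array left out at a time the log2 fold change ran from -0.82 to -0.68, and the call held in 2 of 6 such fits, those without WT replicate 1 and without WT replicate 3.

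**Figure D3:**
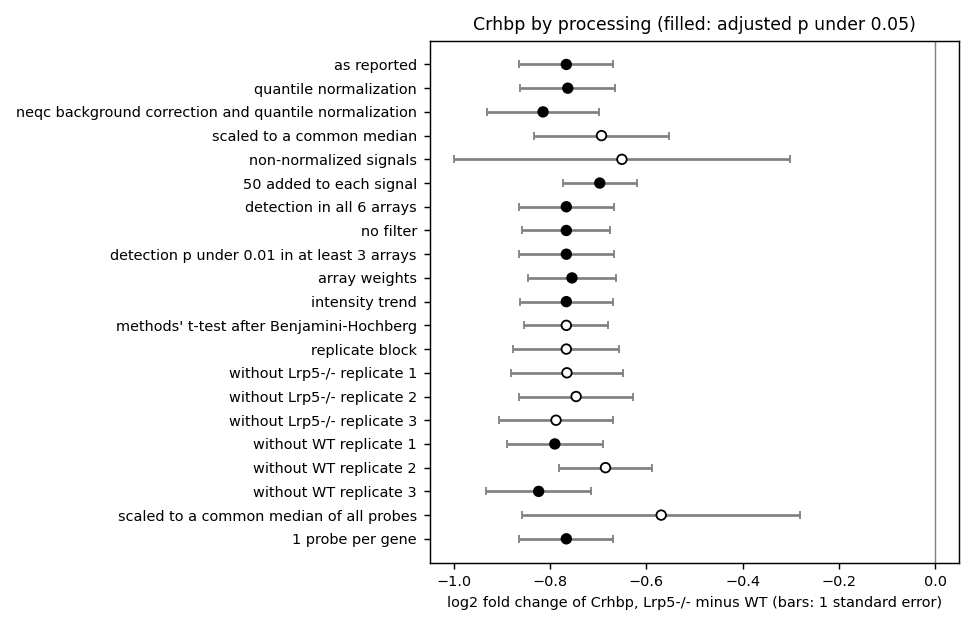
Log2 fold change of Crhbp (x axis, retinas labelled Lrp5-/- minus WT; bars, 1 SE) under each way of processing the arrays (y axis), with filled points where the adjusted p over all probes tested was under 0.05. Every value lies below 0, between -0.82 and -0.57.

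The rest of the corticotropin-releasing hormone system was at or near background. Crh, the hormone, was undetected on every array, at 43.8, 42.3 and 46.5 (Lrp5-/- label) and 38.2, 49.1 and 43.5 (WT). These values overlap and lie where undetected probes lie (medians of 46.9 to 49.2 on the 6 arrays). Among the receptors Crhr1 was expressed, with a log2 fold change of 0.06 (SE 0.11, adjusted p = 0.990), and Crhr2 was not. The urocortin genes Ucn and Ucn3, which encode related peptides, were not expressed, and Ucn2 was not analysed here.

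Adcyap1 and Vip encode related peptides, PACAP and vasoactive intestinal peptide, which share receptors. The Adcyap1 signal was 110.3, 109.3 and 107.9 under the Lrp5-/- label and 123.3, 125.9 and 139.4 in WT retinas. All values of the retinas labelled Lrp5-/- lay below the WT values, at a log2 fold change of -0.24 (SE 0.09). The Vip signal (ILMN_2943387) was 94.2, 86.7 and 83.4 under the Lrp5-/- label and 77.9, 73.1 and 77.6 in WT retinas. Here the order was the other way round, with a gap of 5.5 units and a log2 fold change of 0.21 (SE 0.09). Both probes were dim. The groups overlapped for Adcyap1 in the signals without normalization and after scaling to a common median of all probes, and for Vip without normalization and after scaling the expressed probes to a common median. The other Vip probe (ILMN_1243637) was detected on 1 of 6 arrays and gave 50.8, 52.9 and 56.0 under the Lrp5-/- label and 66.2, 49.7 and 62.3 in WT retinas, which overlap.

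Tac1 encodes substance P and neurokinin A, which excite cells through tachykinin receptors. Its expressed probe (ILMN_1251000) gave 421.7, 463.9 and 417.1 under the Lrp5-/- label and 409.2, 389.2 and 415.8 in WT retinas. The groups were apart by 1.3 units, at a log2 fold change of 0.10 (SE 0.09), and they overlapped after quantile normalization or neqc, in the signals without normalization and after scaling to a common median of all probes. Its second probe (ILMN_1219905) was undetected on every array, at 49.0 to 55.0.

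Sst encodes somatostatin, an inhibitory peptide of sparse wide-field amacrine cells. Its signal was 139.4, 174.1 and 187.4 under the Lrp5-/- label and 131.7, 167.5 and 126.2 in WT retinas. The groups overlapped, and the log2 fold change was 0.24 (SE 0.14). With 1 array left out it ran from 0.15 (without Lrp5-/- replicate 3) to 0.36 (without WT replicate 2). Npy encodes neuropeptide Y, which acts on inhibitory receptors. Its signal was 1597.4, 2602.3 and 2191.7 under the Lrp5-/- label and 2555.8, 2244.9 and 2257.1 in WT retinas. The retinas labelled Lrp5-/- held both the lowest and the highest Npy value, and the log2 fold change was -0.17 (SE 0.15). Without Lrp5-/- replicate 1, the lowest array, it was 0.02.

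Cartpt, which encodes the CART peptides, is read by 2 expressed probes. The brighter (ILMN_2719755) gave 751.1, 980.8 and 906.5 under the Lrp5-/- label and 866.9, 987.1 and 1001.4 in WT retinas. The other (ILMN_3123063) gave 511.7, 702.9 and 626.8 against 528.0, 598.9 and 630.3. Both overlapped between the groups, and their log2 fold changes had opposite signs, -0.12 (SE 0.11) and 0.06 (SE 0.12). Across the 6 arrays the deviations of the 2 probes from their group means had a Pearson r of 0.99, as a description over arrays that share the preparation of each RNA.

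Penk encodes the enkephalins, opioid peptides, and its probe lay just outside the criterion for expression. It was detected on 2 of 6 arrays, Lrp5-/- replicate 2 (64.1) and WT replicate 2 (59.6), while WT replicate 1 read higher (67.4) without being detected. The remaining Penk readings were 54.7 and 54.4 under the Lrp5-/- label and 53.2 in WT replicate 3. Cck, the cholecystokinin gene, was undetected on every array, with signals from 41.3 to 51.4. No member probe lay just inside the criterion, since all 8 expressed probes were detected on 6 of 6 arrays, and the highest detection p among them was 0.0203 (Vip, WT replicate 1).

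The arrays on which a member was high or low were not the same for all members. Lrp5-/- replicate 1 had the lowest value of its group for Npy, Sst and both Cartpt probes, at log2 deviations of -0.39 for Npy, -0.25 for Sst and -0.22 for the brighter Cartpt probe. Crhbp did not share this, with a log2 deviation of -0.0023 on that array. The same array had the lowest lens crystallin signal of its group, with a median deviation of the expressed lens list of -1.10. Over the 6 arrays the deviations of Npy and of the lens list had a Pearson r of 0.89, those of Sst and the lens list 0.56, and those of Crhbp and the lens list 0.10. These are among 56 coefficients, of the 8 probes with 7 marker lists, which ran from -0.83 to 0.89. Others of that size were Crhbp with the ganglion cell list (-0.83), Adcyap1 with the rod list (0.89) and Tac1 with the ganglion cell list (0.86), and Crhbp with the microglia list had -0.64. The summed signal of the expressed lens genes (7 of 11, with Lim2, Bfsp2 and Mip not expressed) ran from 479.9 to 1968.5 in the retinas labelled Lrp5-/- and from 470.3 to 1515.6 in WT retinas. The part of RNA of other cells in the member values was not tested.

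**Figure D4:**
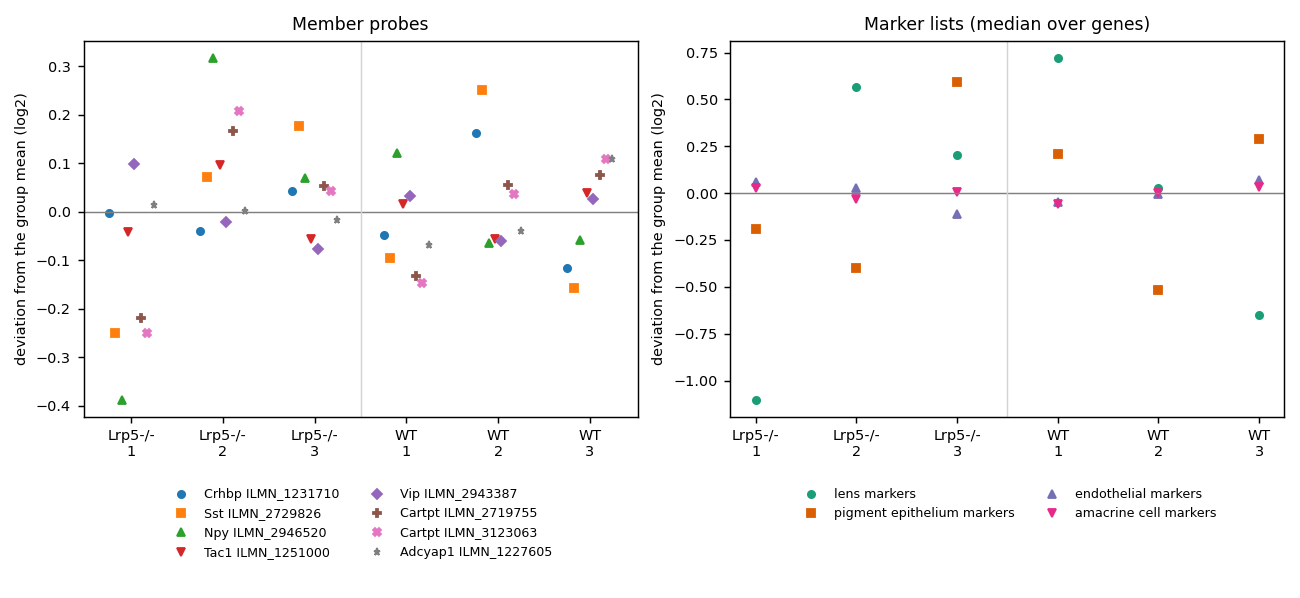
Deviation of each array from the mean of its genotype (y axes, log2; 6 arrays on the x axes) for the 8 expressed member probes on the left and for the median of 4 marker lists on the right. Lrp5-/- replicate 1 is low for Npy (-0.39), Sst (-0.25) and the lens list (-1.10), while Crhbp stays near 0 there.

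Most receptors of the member peptides were too dim to measure. Of 23 listed receptor genes, 21 had a probe and 7 were expressed. Of these, 0 passed an adjusted p of 0.05 and 0 had an unadjusted p under 0.05 (limma). Over all expressed probes the shares were 0.116% and 4.85%, so 0 is near them for so short a list. The methods' t-test after Benjamini-Hochberg adjustment gave 0 here and 0 over all expressed probes, so its 0 was fixed for any list. The median log2 fold change of the 7 expressed receptor genes was -0.05, with a range of -0.15 to 0.06. The tachykinin receptors Tacr3 and Tacr1 had log2 fold changes of -0.15 (SE 0.13, adjusted p = 0.987) and -0.08 (SE 0.12, adjusted p = 0.990), and a second Tacr3 probe gave 0.03. For the neuropeptide Y receptors Npy2r and Npy1r the values were -0.14 (SE 0.13, adjusted p = 0.987) and -0.05 (SE 0.09, adjusted p = 0.990). Sstr2, a somatostatin receptor, had -0.05 (SE 0.09, adjusted p = 0.990), and Cckbr, a cholecystokinin receptor, had -0.01 (SE 0.17, adjusted p = 0.999). Among those not expressed were the PACAP receptor Adcyap1r1, detected on 1 array, Vipr1, and the opioid receptors Oprm1 and Oprk1. Vipr2 and Oprd1 were not analysed here.

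The machinery that cuts, stores and releases the peptides also gave 0 calls, over 13 expressed of 16 listed genes, beside 0.116% of all expressed probes. At an unadjusted p under 0.05, which 4.85% of all expressed probes reached, there was 1 of 13, Pam, the enzyme that amidates peptide ends, with a log2 fold change of -0.28 (SE 0.11, adjusted p = 0.941). Cadps2, a priming factor of dense-core vesicles, had -0.34 (SE 0.16, adjusted p = 0.987). Without WT replicate 1 Cadps2 had -0.57 with an adjusted p of 0.0248, within a range of 0.0248 to 1 over the alternatives. The brightest probe of Chga, a granin of vesicle cores, had 0.26 (SE 0.15, adjusted p = 0.987), and its other probes lay between -0.03 and 0.11. The peptidases that degrade the peptides (6 expressed of 11 listed) gave 0 calls, with a median log2 fold change of 0.02 and 0 at an unadjusted p under 0.05. By the methods' t-test after adjustment both lists gave 0 calls, as did all expressed probes together, so this count was fixed for any list.

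Precursor genes outside the 10 members gave 0 calls over 14 expressed of 37 listed, beside 0.116% of all expressed probes. Their median log2 fold change was -0.07. At an unadjusted p under 0.05 (4.85% of all expressed probes) there was 1 of 14, Pmch, the precursor of melanin-concentrating hormone, at 0.41 (SE 0.15, adjusted p = 0.894). Pmch passed the threshold without WT replicate 1 (0.60, adjusted p = 0.0201) and with array weights (0.57, adjusted p = 0.0344), within a range of 0.0201 to 1. Nmb and Nmu, which encode neuromedins, had -0.23 and -0.16, and Sct, the secretin gene, had 0.23, none of which passed.

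**Figure D5:**
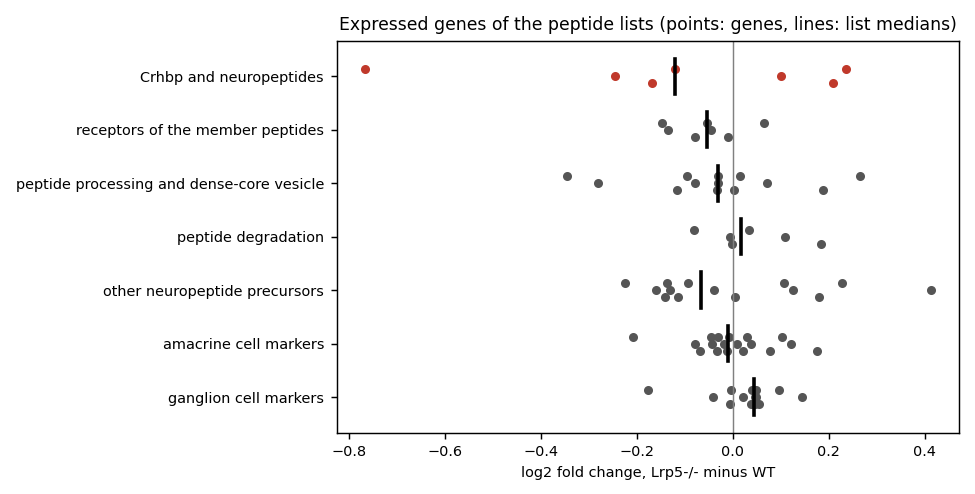
Log2 fold change (x axis, retinas labelled Lrp5-/- minus WT) of the expressed genes of each list (y axis; 1 point per gene, with the list median as a vertical line). Crhbp, known to differ when it was chosen, stands at -0.77, and the genes of the 6 lists below it lie between -0.34 and 0.41.

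Markers of the cells known to hold most of these peptides gave no call. Over all expressed probes 0.116% were called and 4.85% had an unadjusted p under 0.05 (limma). In lists this short 0 calls is near the first share and shows nothing particular to these cells. Of the 18 expressed amacrine cell genes 0 passed the threshold (0 at an unadjusted p under 0.05), with a median log2 fold change of -0.01, and their summed signal was 24537.7 to 26012.4 in the retinas labelled Lrp5-/- and 23961.9 to 25975.9 in WT retinas. The lowest of them was Chat, which makes acetylcholine in starburst amacrine cells, at -0.21 (SE 0.10, adjusted p = 0.987). The GABA-synthesizing enzymes Gad2 and Gad1 had 0.18 and 0.08, and the other expressed Gad1 probes lay on the other side of 0, between -0.12 and -0.08. Of the 14 expressed ganglion cell genes 0 passed, with a median of 0.04, from -0.18 (Rbpms) to 0.14 (Pou4f1). The other expressed Rbpms probes lay between -0.02 and 0.13. By the methods' t-test after adjustment both lists gave 0 calls, but so did all expressed probes together, and the count holds nothing about these cells.

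Of 12 listed endothelial markers 10 were expressed, and 1 passed the threshold, the tight junction gene Cldn5, at a log2 fold change of -3.16 (adjusted p = 3.64e-07, limma). At an unadjusted p under 0.05 (limma), which 4.85% of all expressed probes reached, there were 7 lower and 1 higher. The groups did not overlap for 8 of the 10 in the lower direction and for 1, Emcn, in the higher direction (0.25, adjusted p = 0.982). Over all expressed probes this held for 4.96% in the lower and 5.74% in the higher direction. The list's median log2 fold change was -0.41, and its summed signal was 1454.9 to 1652.3 in the retinas labelled Lrp5-/- and 2633.4 to 3056.9 in WT retinas, without overlap. Pigment epithelium genes had 6 of 12 expressed (Rpe65, Tyr, Mlana, Lrat, Slc45a2 and Oca2 were not). Their median was -0.43, with 0 calls (limma; 0 at an unadjusted p under 0.05), and their summed signal overlapped between the groups, at 3240.1 to 4909.3 and 3048.4 to 5491.8. Rlbp1 weighed much in that sum, with means of 1725 (Lrp5-/- label) and 1655 (WT). The groups also overlapped for the brightest probes of Dct, Tyrp1 and Pmel taken singly. The part of endothelial or pigment epithelium RNA in the Crhbp value was not tested.

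The probes whose pattern over the 6 arrays was most like that of Crhbp were those of Trmt1 (Pearson r 0.994), Cxcl12 (0.994), Hic2 (0.993), Camk2g (0.992) and Mtmr11 (0.990), picked out of all expressed probes for this likeness. Their log2 fold changes were -0.20, -0.42, -0.20, -0.19 and -0.27, all smaller in size than that of Crhbp. Both genotypes contribute to these coefficients, which are a description. Of the 5 protein-coding genes on each side of Crhbp in the RefSeq order, 5 were expressed. The threshold was passed by 0 of them, beside 0.116% of all expressed probes. Iqgap2, a scaffold protein of the cytoskeleton, had -0.30 (SE 0.09, adjusted p = 0.688), and Wdr41, Pde8b, Aggf1 and F2r lay between -0.07 and 0.06. Expressed member genes with a promoter match to the cyclic AMP response element lay on both sides of 0 in the comparison of genotypes. Those with the core alone were Crhbp at -0.77, Adcyap1 at -0.24, Tac1 at 0.10 and Vip at 0.21. Those with the whole palindrome were Sst at 0.24 and Cartpt at -0.12 and 0.06 by its 2 probes. A role of the element was not tested.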

How the data were processed

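Postnatal day 8 retinas, 3 labelled Lrp5-/- and 3 WT, were measured on 6 Illumina arrays, 1 for each mouse. The authors deposited a signal intensity for each probe, normalized between arrays in Bead Studio by the rank invariant algorithm, without background subtraction, beside the same intensity without normalization. The deposited detection p-value compares each probe with negative control beads. Of 45281 probes, 34885 had 1 gene symbol, 18 several and 10378 none in the platform annotation, and 34807 matched RefSeq by Entrez identifier (0 symbols changed).

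Signals under 16 were set to 16 and put on the log2 scale. Probes with a detection p below 0.05 on 3 or more arrays (20721) were fitted with limma 3.58.1 in R 4.3.3 (lmFit, eBayes), with Benjamini-Hochberg adjustment across all of them. The methods' SAM test was not used. The fit was tested on simulated data. A call means an adjusted p under 0.05. Fold changes of dim probes are understated because the background is included, and the number of arrays limits the precision. Signals were compared between arrays for the same probe or the same summed list, in which bright probes weigh most. The limma p-values rest on the spread between mice of a genotype, which eBayes draws towards that of all probes fitted.

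The members, lists and tests were chosen with earlier results of these data known. A gene is represented by its brightest expressed probe. Named were all member probes, receptors with an expressed probe, up to 4 genes of each list with the smallest p, the 5 genes most like Crhbp, and its neighbours (restricted to protein-coding genes). Other genes of a list are named where its passage gives them. Alternatives were other normalizations (quantile, neqc with an offset of 16, a common median, none), 50 added to each signal, other detection filters, array weights, an intensity trend, the methods' t-test, 1 probe per gene, a replicate block, and leaving out single arrays. No slide block could be run, since slides are not named.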

Additional observations from a re-analysis of the deposited data

How the results depend on the processing

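Over all probes, 18 were called lower and 6 higher in the retinas labelled Lrp5-/-. The calls were 9 lower and 1 higher after scaling to a common median, 2 and 0 without normalization (33 probes at an unadjusted p under 0.05), 9 and 2 with 50 added, 74 and 24 with array weights, and 15 and 3 with detection on all 6 arrays. The methods' t-test after Benjamini-Hochberg adjustment gave 0 and 0 (1127 at an unadjusted p under 0.05). Scaling to a common median of all probes, an alternative chosen after seeing the data, also gave 0 and 0 (limma; 170 unadjusted); it shifted the median of all probes by 0.12 on the log2 scale, and Crhbp stood at -0.57 there, with overlapping groups. With 1 array left out the calls ran from 9 to 62 lower and from 1 to 23 higher, and the highest counts came without WT replicate 1.

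The number of member probes called, 1 as reported (Crhbp), was 0 after scaling to either median, without normalization, with the methods' t-test and with the replicate block, and ran from 0 to 1 with 1 array left out (0 without WT replicate 2 or any of the retinas labelled Lrp5-/-). Calls among the processing genes ran from 0 to 1 and among other precursors from 0 to 1 with 1 array left out, and array weights gave 1 other precursor (Pmch). Of 104 values of the expressed member probes under settings that change the fold change, 93 stayed within 1 SD of the reported value. The fits with 1 array left out had to stay within it, because the SD includes the deviation of that array. The 11 values that moved all came from the other settings. Crhbp and Adcyap1 stayed below 0 and Sst, Tac1 and Vip above 0 in all alternatives run, while Npy and both Cartpt probes changed sign in some. The causes were not tested.

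With the replicate number as a block the fit called 11 lower and 2 higher. The deviations of same-numbered arrays correlated at -0.21, -0.15 and -0.28, and no array correlated best with the one of its own number. The labels give no pairing beyond the number, and these coefficients cannot show whether same-numbered samples shared a preparation.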
